A study of Homo sapiens with 6 samples.

Results

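Human genes that act in mitosis were followed in DLD1 cells exposed to SAH-BCL9B. The set holds 44 genes of mitotic entry, spindle kinesins and other spindle proteins, condensin and chromosomes, anaphase and cytokinesis, listed by name, of 19775 genes measured in all. Each was represented by its brightest probe set among those naming that gene alone, and all 44 had one. DLD1 is an established human colorectal adenocarcinoma line. The cells received 10 µM SAH-BCL9B or the DMSO vehicle for 12 h, with 3 arrays from separate cultures in each group, and no control peptide was included. SAH-BCL9B is a stapled peptide modelled on the BCL9 helix that binds beta-catenin, and the question was which transcripts differ when that contact is targeted. The values are log2 expression levels on Affymetrix Human Genome U133 Plus 2.0 arrays, so a difference of 1 is a change of 2-fold, and every n below is 3 per group. All differences are SAH-BCL9B minus vehicle, with limma's standard error (SE) after the ± sign. A gene is said to have fallen or risen where limma's p, adjusted by Benjamini-Hochberg over all 19775 genes, was under 0.05.

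Most of these genes are transcribed in a wave that peaks in G2 phase and mitosis. The DREAM and MuvB complexes hold them down in resting and early cycling cells, and MYBL2 and FOXM1, joined to MuvB, switch them on later. These complexes bind DNA at the cell cycle genes homology region, the CHR element, often beside CCAAT boxes that bind the factor NF-Y. The products then start mitosis, build the spindle, compact and separate the chromosomes and divide the cell. Because the transcripts cycle, fewer cells in G2 phase or mitosis and less RNA per cell cannot be told apart in bulk RNA.

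Before the results, 2 arrays stood slightly apart. The SD of all log2 values was 2.42 on SAH-BCL9B 2 and 2.43 on vehicle 3, against 2.47 to 2.49 on the other 4 arrays. The ACTB 3' minus 5' difference, a sign of RNA length, was 0.74 on SAH-BCL9B 2, against 1.20 and 1.33 on the other SAH-BCL9B arrays and 1.21 to 1.38 on the vehicle arrays. For GAPDH the same difference did not set SAH-BCL9B 2 apart, with 0.14 against 0.09 to 0.17 on the other arrays. All 11 markers of colorectal epithelium lay above the median of all probe sets, led by KRT18. Of the markers of other cells, 2 of 6 for fibroblasts, 1 of 3 for endothelium and 1 of 4 for blood did. The mean level of the fibroblast markers ran from 6.10 to 6.34 across the SAH-BCL9B arrays and from 6.11 to 6.34 across the vehicle arrays.

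After 12 h with SAH-BCL9B, mitotic genes were lower as a group. Of the 44 genes, 24 fell, 20 did not pass the test and 0 rose, while 3.43% of all genes fell and 3.49% rose. At an unadjusted p under 0.05, 32 were lower and 0 higher, against 9.22% and 12.2% of all genes. The median difference was -0.39, against 0.02 over all genes, and 43 of the 44 differences were negative, as were 44.9% of all differences. The changes were modest in size. Among the 24 that fell, the differences ran from -0.34 for CCNA2 to -0.68 for HMMR, and 3 genes (HMMR, CDC25C and MKI67) fell by at least 1.5-fold, as did 1.32% of all genes. All 3 SAH-BCL9B arrays lay below all 3 vehicle arrays in 37 of the 44 genes, against 12.0% of all genes. Some gaps were tiny: CDC20, counted among the 37, rounded to 11.92 on SAH-BCL9B 2, vehicle 2 and vehicle 3 alike. The median over the 44 genes, set against the vehicle mean of each gene, was -0.43 on SAH-BCL9B 1, -0.35 on SAH-BCL9B 2 and -0.36 on SAH-BCL9B 3, so the shift was present on each treated array. Mean levels of the 44 genes lay between log2 7.43 and 12.73, and 43 of them, all but PLK1, were above the median over all genes, 7.69.

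The number of genes that fell depended strongly on which arrays were in the fit. With vehicle 1 omitted, 3 of the 44 fell (1.06% of all genes), with vehicle 2 omitted 5 (1.31%), and with vehicle 3 omitted 9 (2.17%). With SAH-BCL9B 1 omitted it was 6 (1.65%), with SAH-BCL9B 2 omitted 22 (3.68%), and with SAH-BCL9B 3 omitted 8 (1.4%). With both vehicle 3 and SAH-BCL9B 2 omitted, 23 fell (3.49%). On all 6 arrays the count was 28 when genes with a mean under log2 6.605 were dropped (8.25% of the genes tested), 30 when limma modelled a variance trend robustly (5.44%) and 29 when it weighted the arrays (5.35%). It was 23 after median centring (3.35%) and 23 after a second quantile normalization (3.76%). It was 16 when p was adjusted over every probe set (2.46% of genes by their chosen probe set), and 2 when the replicate number was a block (0.986%). The median difference of the 44 genes stayed between -0.42 and -0.37 in the fits that left out 1 array. CDC25C and HMMR were the 2 genes that passed in every alternative run, among them each array left out in turn.

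**Figure D1:**
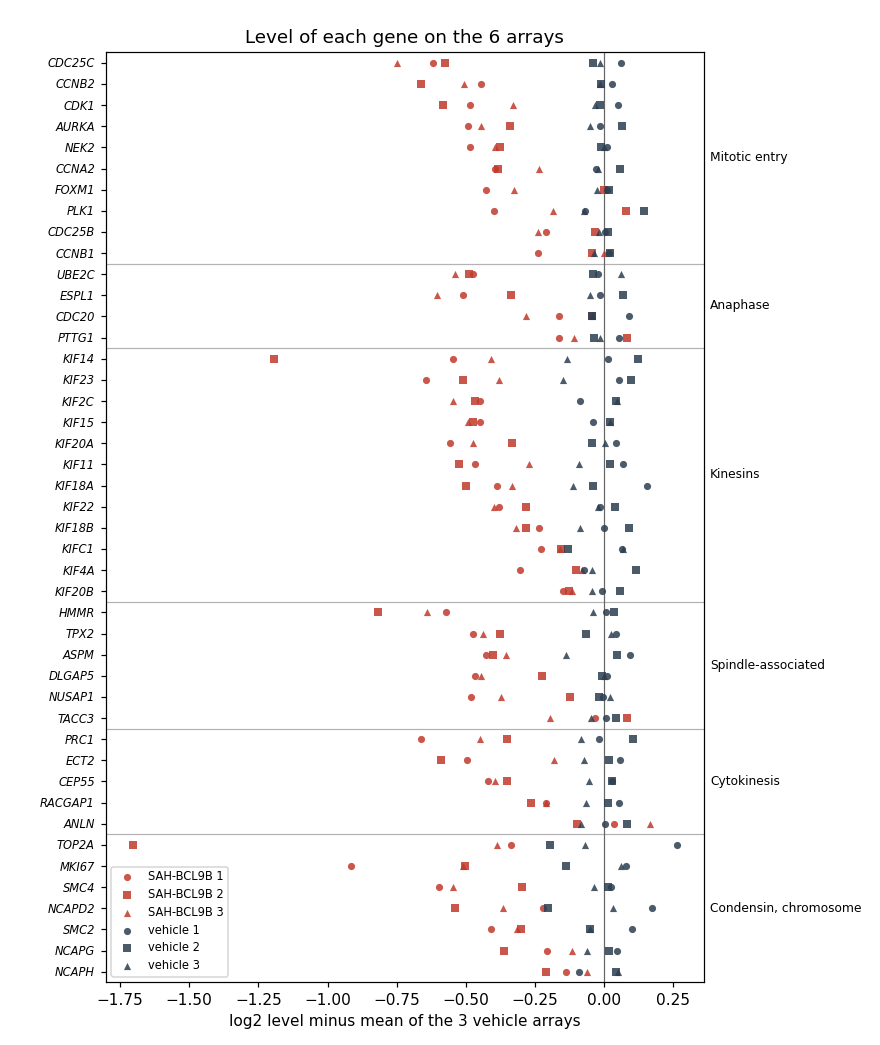
Log2 level of each of the 44 genes on the 6 arrays, minus the mean of its 3 vehicle arrays, with genes grouped by function and ordered by their difference. Red symbols are SAH-BCL9B arrays and dark symbols vehicle arrays, 1 symbol shape per replicate number. In 37 genes every red symbol lies left of every dark one, in CDC20 by less than can be seen. ANLN, PTTG1 and TACC3 are among the genes whose groups overlap.

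Most promoter windows of these genes held the CHR element, which was not used to choose the genes. The background above ties this element to genes of G2 phase and mitosis, so its share does not bear on SAH-BCL9B. Promoter windows from RefSeq (GRCh38.p14, 250 bases before to 50 after the start) were found for 39 of the 44 genes, in 51 windows; AURKA, FOXM1, RACGAP1, TPX2 and UBE2C had none in the table used. The CHR element was searched as TTTGAA or TTCGAA on either strand. It occurred in 35 of the 51 windows (68.6%), against 16.4% of 35116 windows of all genes. By gene, 31 of the 39 (79.5%) had it in at least 1 window, against 19.5% of the 27305 genes with windows. The CCAAT box, searched as CCAAT on either strand, was in 36 windows (70.6%), against 34.6% of all windows. Both motifs together were in 28 (54.9%), against 6.38%. The site CTTTGAT of the TCF factors, which bind beta-catenin, was in 0 of the 51 windows and in 2.62% of all windows. At so low a share few matches would be expected in 51 windows, and no other spelling of the site was searched. The 0 therefore cannot show that such sites are lacking. CTTTGAT shares the letters TTTGA with the CHR element. Of 48 CHR matches, 21 (43.8%) began within the 50 bases before the start, as did 14.5% of all matches in all windows. Windows of the same gene can overlap, and an element in the overlap was counted in each, as in CDC25C, ECT2 and KIF22. These are matches of letters, and binding was not measured here.

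The stretches below are the 120 bases before the start, 5' to 3', shown to let the placement of these motifs be compared between genes that fell and genes that did not. They belong to the gene with the smallest adjusted p in each function among those with a window (CDC25C, ESPL1, KIF15, HMMR, CEP55 and MKI67) and to the 2 genes with the smallest differences (ANLN and TACC3). CDC25C alone among them had several windows, 4 in number. The window shown for it was picked because its CHR element lay nearest before the start, so that placement was selected by the motif. Capitals mark CHR elements and CCAAT boxes on either strand, so that TTCAAA and ATTGG are matches read from the other strand. The positions in GRCh38.p14 are chr5:138331805-138331924, minus strand, for CDC25C, chr12:53268179-53268298, plus strand, for ESPL1, and chr3:44761674-44761793, plus strand, for KIF15. They are chr5:163460512-163460631, plus strand, for HMMR, chr10:93496492-93496611, plus strand, for CEP55, and chr10:128126424-128126543, minus strand, for MKI67. ANLN is at chr7:36389742-36389861, plus strand, and TACC3 at chr4:1720511-1720630, plus strand.
CDC25C: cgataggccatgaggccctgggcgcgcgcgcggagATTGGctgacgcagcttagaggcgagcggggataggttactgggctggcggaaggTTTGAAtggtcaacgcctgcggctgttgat
ESPL1: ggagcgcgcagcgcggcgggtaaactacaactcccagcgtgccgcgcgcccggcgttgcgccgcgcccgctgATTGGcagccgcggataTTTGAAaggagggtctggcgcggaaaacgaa
KIF15: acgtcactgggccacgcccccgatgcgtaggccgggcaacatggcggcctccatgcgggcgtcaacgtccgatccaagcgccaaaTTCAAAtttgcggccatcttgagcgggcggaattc
HMMR: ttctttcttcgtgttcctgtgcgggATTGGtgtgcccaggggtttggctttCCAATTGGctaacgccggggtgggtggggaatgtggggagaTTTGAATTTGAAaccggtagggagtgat
CEP55: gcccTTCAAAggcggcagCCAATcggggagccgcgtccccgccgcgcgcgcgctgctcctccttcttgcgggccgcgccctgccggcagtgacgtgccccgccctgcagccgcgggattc
MKI67: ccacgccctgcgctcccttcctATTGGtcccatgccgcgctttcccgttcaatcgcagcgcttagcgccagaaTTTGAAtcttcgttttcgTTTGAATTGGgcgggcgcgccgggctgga
ANLN: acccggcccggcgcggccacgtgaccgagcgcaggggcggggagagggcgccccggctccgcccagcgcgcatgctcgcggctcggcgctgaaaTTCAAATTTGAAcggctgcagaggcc
TACC3: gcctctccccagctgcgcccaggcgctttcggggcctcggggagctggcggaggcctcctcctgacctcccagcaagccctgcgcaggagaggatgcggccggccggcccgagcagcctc

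CDC25C, ESPL1 and KIF15 held 1 CHR element each in the stretch, while HMMR and MKI67 held 2, in HMMR directly next to each other. CEP55 held 1 near the upstream end of the stretch and another across the start itself. ANLN, whose difference did not pass the test, held 2 adjoining elements, without a CCAAT box in the stretch, and TACC3 held neither motif. Among the 31 genes with a match to the CHR letters searched, the median difference was -0.39 and 17 fell. Among the 8 without a match the median was -0.24 and 4 fell. Those 4 were CCNA2, NEK2, KIF2C and KIF20A. No test was made of this difference. Other spellings of the element were not searched, so a gene without a match is not shown to lack a CHR element.

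**Figure D2:**
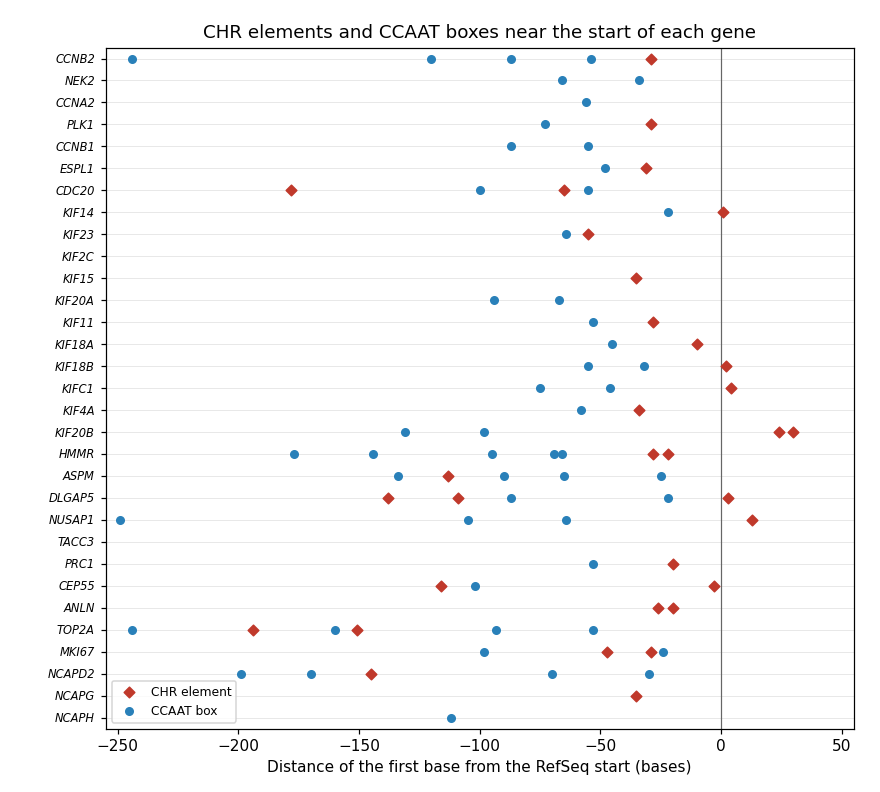
Position of CHR elements (red diamonds) and CCAAT boxes (blue circles) in the promoter windows of the 31 genes with a single window in RefSeq, as the distance in bases of the first base from the start (0), negative upstream. Many red diamonds lie in the 50 bases before the start with blue circles farther upstream. KIF2C and TACC3 have no match to either motif as searched.

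Of the 10 genes of mitotic entry, 6 fell (3.43% of all genes did) and 4 did not pass the test, with a median difference of -0.38. CDK1 is the kinase that drives entry once bound to cyclin B, and CDC25C is a phosphatase that activates it. CDC25C had log2 levels of 9.11, 9.15 and 8.98 on the SAH-BCL9B arrays and 9.79, 9.69 and 9.71 on the vehicle arrays. It fell 1.57-fold (-0.65 ± 0.08, adjusted p = 0.00507), and its groups were far apart for their spread, with SDs of 0.09 and 0.05. CDK1 itself had 11.81, 11.71 and 11.96 on the SAH-BCL9B arrays and 12.34, 12.28 and 12.26 on the vehicle arrays. All treated arrays lay below all vehicle arrays, and the difference was -0.47 ± 0.09, adjusted p = 0.02. CCNB2, which encodes cyclin B2, had 12.05, 11.83 and 11.98 on the SAH-BCL9B arrays and 12.52, 12.48 and 12.48 on the vehicle arrays. The vehicle arrays were nearly equal and the difference, -0.54 ± 0.08, passed the test (adjusted p = 0.0109).

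CCNA2, the cyclin A of S and G2 phase, measured 10.94, 10.96 and 11.10 with SAH-BCL9B, against 11.31, 11.39 and 11.32 with vehicle. Its difference was -0.34 ± 0.08, and it passed narrowly (adjusted p = 0.0461). AURKA, a kinase of centrosome maturation and spindle assembly, measured 10.97, 11.12 and 11.02 with SAH-BCL9B, against 11.45, 11.53 and 11.41 with vehicle. The groups did not overlap (-0.43 ± 0.08, adjusted p = 0.0195). The centrosome-splitting kinase gene NEK2 had 10.56, 10.67 and 10.65 with SAH-BCL9B, against 11.06, 11.03 and 11.04 with vehicle. Its spread was the smallest among entry genes, with an SD of 0.01 over the vehicle arrays, and it fell by 0.42 ± 0.07 on the log2 scale (adjusted p = 0.0159).

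The other 4 entry genes were CCNB1, CDC25B, PLK1 and FOXM1. CCNB1, which encodes cyclin B1, had the smallest difference, with 12.07, 12.27 and 12.31 on the SAH-BCL9B arrays and 12.33, 12.34 and 12.28 on the vehicle arrays. Only SAH-BCL9B 1 was clearly lower, and the difference of -0.10 ± 0.09 did not pass (adjusted p = 0.619). A second, dimmer CCNB1 probe set had 10.46, 10.44 and 10.56 on the SAH-BCL9B arrays and 11.14, 11.15 and 10.93 on the vehicle arrays. Its groups did not overlap, and its difference of -0.59 passed when every probe set was tested by itself (limma adjusted p = 0.0219 over 41091 probe sets). PLK1, a kinase needed from entry to cytokinesis, was the dimmest of the 44 genes, with 7.12, 7.59 and 7.33 on the SAH-BCL9B arrays and 7.44, 7.66 and 7.44 on the vehicle arrays. SAH-BCL9B 2 lay among the vehicle arrays and the other 2 treated arrays below them (-0.17 ± 0.13, adjusted p = 0.542). FOXM1, a transcription factor of this gene set, had 10.30, 10.73 and 10.40 on the SAH-BCL9B arrays and 10.74, 10.75 and 10.70 on the vehicle arrays. On SAH-BCL9B 2 it matched the vehicle arrays, while the other 2 treated arrays lay lower, and the difference was -0.25 ± 0.11, adjusted p = 0.257. Without SAH-BCL9B 2 it was -0.38 and passed (adjusted p = 0.0337, range 0.034 to 0.52 over the alternatives). CDC25B, a phosphatase that starts CDK1 activation, had a difference of -0.16 ± 0.08, adjusted p = 0.315.

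The count of entry genes that fell dropped to 1 when vehicle 1 was omitted, to 2 for vehicle 2, vehicle 3 or SAH-BCL9B 1, and to 3 for SAH-BCL9B 3. It was 6 with SAH-BCL9B 2 omitted. CCNB2 missed the threshold without vehicle 1 (adjusted p = 0.063) and CCNA2 without any 1 of the 6 arrays (highest 0.16). CDK1 missed it when any vehicle array or SAH-BCL9B 1 was omitted (highest 0.1). AURKA and NEK2 kept their call only when the omitted array was SAH-BCL9B 2 (highest 0.09 and 0.086).

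Of the 4 anaphase genes, UBE2C and ESPL1 fell (3.43% of all genes did), and CDC20 and PTTG1 did not pass the test. The anaphase-promoting complex (APC/C) marks securin and cyclin B for destruction, which frees separase to cut the cohesin that holds sister chromatids together. UBE2C, the ubiquitin-conjugating enzyme of the APC/C, had 11.61, 11.59 and 11.54 on the SAH-BCL9B arrays and 12.06, 12.04 and 12.14 on the vehicle arrays. The difference was -0.50 ± 0.07, adjusted p = 0.00902. ESPL1, which encodes separase, had 9.98, 10.15 and 9.88 on the SAH-BCL9B arrays and 10.47, 10.55 and 10.44 on the vehicle arrays, a difference of -0.48 ± 0.09 (adjusted p = 0.0204). Both of its probe sets gave much the same difference, with -0.48 and -0.49. The securin gene PTTG1 had 12.46, 12.70 and 12.51 on the SAH-BCL9B arrays and 12.68, 12.59 and 12.61 on the vehicle arrays. Its highest value was on a treated array, SAH-BCL9B 2, and the difference was -0.06 ± 0.09, adjusted p = 0.776. CDC20, the activator of the APC/C in mitosis, had a difference of -0.16 ± 0.09, adjusted p = 0.354. Neither UBE2C nor ESPL1 passed without vehicle 1 (adjusted p = 0.052 and 0.09). ESPL1 kept its call only when the omitted array was SAH-BCL9B 2.

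Kinesins are motor proteins that walk along or shorten microtubules, and 12 of the 44 genes encode kinesins of the mitotic spindle. The test was passed by 7, all of them lower (3.43% of all genes fell), and missed by 5, with a median difference of -0.41. In all 12 the treated arrays lay below the vehicle arrays, against 12.0% of all genes. At an unadjusted p under 0.05, 9 were lower (9.22% of all genes) and 0 higher (12.2%).

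Among the motors that set the distance between spindle poles, KIF11 and KIF15 fell. KIF15, which helps KIF11 to hold the poles apart, had 8.91, 8.89 and 8.87 on the SAH-BCL9B arrays and 9.32, 9.39 and 9.39 on the vehicle arrays. The values within each group were close together (SDs of 0.02 and 0.04), and the difference was -0.47 ± 0.07, adjusted p = 0.00974. KIF11, the main motor that pushes the poles apart, had 10.24, 10.18 and 10.43 on the SAH-BCL9B arrays and 10.77, 10.73 and 10.61 on the vehicle arrays. It fell by 0.42 ± 0.09 on the log2 scale (adjusted p = 0.0366). KIFC1, which pulls the poles together, had 9.26, 9.33 and 9.33 on the SAH-BCL9B arrays and 9.55, 9.35 and 9.55 on the vehicle arrays. Vehicle 2 was nearly level with the treated arrays, and the difference of -0.18 ± 0.08 did not pass (adjusted p = 0.268).

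Of the kinesins that shorten microtubules or act on chromosomes, KIF2C, KIF18A and KIF22 fell. KIF2C, a microtubule depolymerase of centromeres, had 10.69, 10.67 and 10.59 with SAH-BCL9B, against 11.05, 11.18 and 11.18 with vehicle. The difference was -0.49 ± 0.08, adjusted p = 0.0123. KIF18A, which damps the movement of chromosomes at the spindle equator, had 8.94, 8.83 and 8.99 with SAH-BCL9B, against 9.48, 9.29 and 9.21 with vehicle. Its vehicle arrays were more spread out, with an SD of 0.14, and the difference of -0.41 ± 0.10 passed narrowly (adjusted p = 0.0447). KIF22, a motor that binds chromosome arms, had 9.29, 9.39 and 9.28 with SAH-BCL9B, against 9.66, 9.71 and 9.65 with vehicle, and the difference was -0.35 ± 0.07, adjusted p = 0.0291. KIF18B, which limits the growth of microtubules outside the spindle, had a difference of -0.28 ± 0.08 (adjusted p = 0.0798). It passed with a filter on low values, with array weights and when limma modelled a variance trend robustly (adjusted p = 0.0318, 0.0411 and 0.026, range 0.026 to 0.24 over the alternatives).

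Among the kinesins of the spindle midzone and cytokinesis, KIF20A and KIF23 fell. KIF20A, which carries the chromosomal passenger complex to the midzone, had 10.07, 10.29 and 10.15 on the SAH-BCL9B arrays and 10.67, 10.58 and 10.63 on the vehicle arrays. The difference was -0.45 ± 0.08, adjusted p = 0.0195. KIF23, a subunit of the centralspindlin complex that bundles midzone microtubules, had 9.60, 9.73 and 9.87 on the SAH-BCL9B arrays and 10.30, 10.34 and 10.10 on the vehicle arrays. SAH-BCL9B 3 came nearest to the vehicle arrays, and the difference was -0.51 ± 0.10, adjusted p = 0.0243. KIF14, which acts late in cytokinesis, had 9.02, 8.37 and 9.16 on the SAH-BCL9B arrays and 9.58, 9.69 and 9.43 on the vehicle arrays. It had the largest difference of the kinesins, -0.72 ± 0.19, but SAH-BCL9B 2 lay far below the other treated arrays and the test did not pass (adjusted p = 0.0683). Without SAH-BCL9B 2 the difference of KIF14 was -0.48 and passed (adjusted p = 0.0365). So did its second probe set, at -0.68 (adjusted p = 0.0287 over all probe sets; range 0.01 to 0.19 over the alternatives of the gene). KIF4A, the partner of PRC1 at the midzone, and KIF20B, of the last steps of cytokinesis, had the smallest differences of the kinesins. These were -0.16 ± 0.09, adjusted p = 0.39, for KIF4A and -0.13 ± 0.07, adjusted p = 0.356, for KIF20B. In KIF20B the levels were 10.12, 10.15 and 10.16 with SAH-BCL9B, against 10.26, 10.33 and 10.23 with vehicle.

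The count of kinesins that fell dropped to 1 when vehicle 1 or vehicle 2 was omitted, to 3 for vehicle 3, to 2 for SAH-BCL9B 1 or SAH-BCL9B 3, and to 6 for SAH-BCL9B 2. KIF15 missed the threshold without vehicle 1 (adjusted p = 0.051), and KIF2C without vehicle 2 or SAH-BCL9B 3 (highest 0.056). KIF18A missed it without any 1 of the 6 arrays (highest 0.17), and KIF11 kept its call only with SAH-BCL9B 3 omitted (highest 0.15). KIF22 and KIF20A kept theirs only with SAH-BCL9B 2 omitted (highest 0.12 and 0.1), and KIF23 only with SAH-BCL9B 2 or vehicle 3 omitted (highest 0.11).

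**Figure D3:**
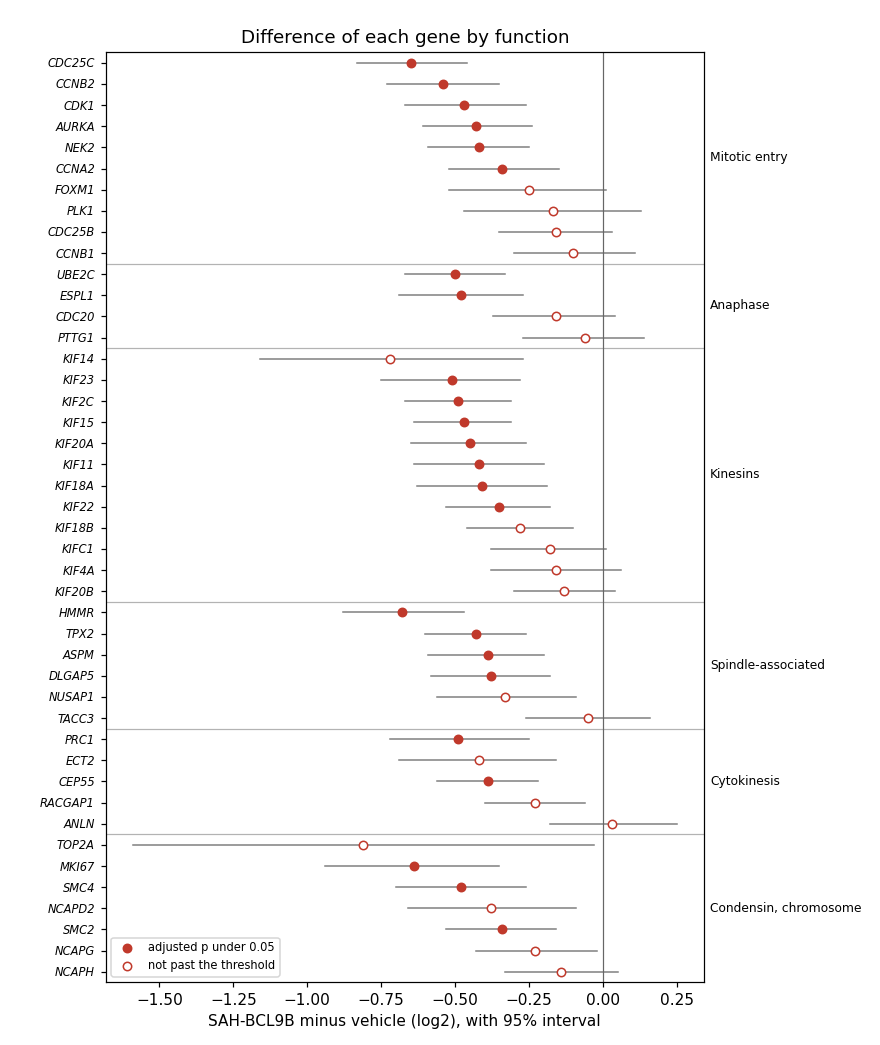
SAH-BCL9B minus vehicle difference (log2) of each of the 44 genes with limma's 95% interval, grouped by function; filled circles passed an adjusted p of 0.05 over all genes. HMMR and CDC25C lie farthest left among filled circles, TOP2A and KIF14 have the widest intervals, and ANLN alone lies right of 0.

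Of the 6 other spindle-associated genes, 4 fell (3.43% of all genes did) and 2 did not pass the test, with a median difference of -0.39. HMMR, which encodes a protein of spindle poles and microtubule assembly, had 11.79, 11.55 and 11.73 on the SAH-BCL9B arrays and 12.37, 12.40 and 12.32 on the vehicle arrays. It showed the largest fall of the 24, 1.60-fold (-0.68 ± 0.09, adjusted p = 0.00587). Its second probe set had 10.51, 10.47 and 10.49 on the SAH-BCL9B arrays and 11.31, 11.37 and 11.16 on the vehicle arrays. That probe set, too, showed no overlap, with a difference of -0.79 (adjusted p = 0.00741 over all probe sets).

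TPX2, the activator of AURKA on spindle microtubules, had 10.65, 10.75 and 10.69 with SAH-BCL9B, against 11.17, 11.06 and 11.15 with vehicle. The difference was -0.43 ± 0.08, adjusted p = 0.0164. ASPM, which acts at spindle poles, had 11.20, 11.23 and 11.27 with SAH-BCL9B, against 11.72, 11.67 and 11.49 with vehicle. It fell by 0.39 ± 0.09 on the log2 scale (adjusted p = 0.0344). DLGAP5, which stabilises the microtubules that reach kinetochores, had 10.34, 10.58 and 10.36 with SAH-BCL9B, against 10.82, 10.80 and 10.80 with vehicle. SAH-BCL9B 2 was the highest treated array, and the difference was -0.38 ± 0.09, adjusted p = 0.0423.

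NUSAP1, which bundles spindle microtubules, had 11.56, 11.92 and 11.67 on the SAH-BCL9B arrays and 12.04, 12.02 and 12.06 on the vehicle arrays. Its groups did not overlap, but SAH-BCL9B 2 was close to the vehicle arrays and the difference of -0.33 ± 0.10 did not pass (adjusted p = 0.105). Without SAH-BCL9B 2 it was -0.43 and passed (adjusted p = 0.0245, range 0.021 to 0.27 over the alternatives). TACC3, which links the microtubules of kinetochore fibres, had 9.66, 9.78 and 9.51 on the SAH-BCL9B arrays and 9.71, 9.74 and 9.65 on the vehicle arrays. The groups overlapped (-0.05 ± 0.09, adjusted p = 0.842), and without SAH-BCL9B 3 the sign turned, with a value of 0.02. HMMR passed whichever array was omitted. TPX2 and DLGAP5 kept their call only with SAH-BCL9B 2 omitted (highest adjusted p = 0.091 and 0.16), and ASPM only with vehicle 3 omitted (highest 0.15), so 1 to 4 of the 6 genes passed.

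Of the 5 cytokinesis genes, PRC1 and CEP55 fell (3.43% of all genes did) and 3 did not pass the test, with a median difference of -0.39. PRC1, which crosslinks the microtubules of the midzone, had 10.93, 11.24 and 11.14 on the SAH-BCL9B arrays and 11.58, 11.70 and 11.51 on the vehicle arrays. The difference was -0.49 ± 0.10, adjusted p = 0.0289. CEP55, which brings the machinery of the final cut to the midbody, had 11.09, 11.16 and 11.12 on the SAH-BCL9B arrays and 11.54, 11.54 and 11.46 on the vehicle arrays. Values within groups were close, and the difference was -0.39 ± 0.07, adjusted p = 0.0197. ECT2, the activator of RhoA at the cleavage site, had 11.63, 11.54 and 11.95 on the SAH-BCL9B arrays and 12.19, 12.15 and 12.06 on the vehicle arrays. SAH-BCL9B 3 was near the vehicle arrays, and the difference of -0.42 ± 0.11 did not pass (adjusted p = 0.0708). It passed when its probe sets were averaged, where it was -0.36, and without SAH-BCL9B 3, where it was -0.54 (adjusted p = 0.0359 and 0.0403, range 0.011 to 0.23 over the alternatives).

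RACGAP1, the partner of KIF23 in centralspindlin, had 11.67, 11.62 and 11.67 with SAH-BCL9B, against 11.93, 11.90 and 11.82 with vehicle. The groups did not overlap, yet the difference of -0.23 ± 0.07 did not pass (adjusted p = 0.116). It passed with the filter on low values and with a modelled variance trend (adjusted p = 0.0458 and 0.0271, range 0.027 to 0.36 over the alternatives). ANLN, a scaffold of the contractile ring, had 11.29, 11.16 and 11.42 with SAH-BCL9B, against 11.26, 11.34 and 11.17 with vehicle. It was the 1 gene of the 44 with a positive difference (0.03 ± 0.09, adjusted p = 0.904), its groups overlapped, and the 95% interval ran from -0.18 to 0.25. The sign turned without vehicle 3 (-0.01) and without SAH-BCL9B 3 (-0.03), and its second probe set had -0.03. Of the cytokinesis genes, 0 passed when vehicle 1, vehicle 2 or SAH-BCL9B 1 was omitted. PRC1 kept its call only with SAH-BCL9B 2 omitted, and CEP55 with SAH-BCL9B 2 or vehicle 3 omitted (highest adjusted p = 0.11 for both).

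Of the 7 condensin and chromosome genes, MKI67, SMC4 and SMC2 fell (3.43% of all genes did) and 4 did not pass the test. The median difference was -0.38. MKI67, which encodes the proliferation marker that coats mitotic chromosomes, had 10.69, 11.10 and 11.09 on the SAH-BCL9B arrays and 11.68, 11.46 and 11.66 on the vehicle arrays. SAH-BCL9B 1 was lowest, and the difference was -0.64 ± 0.13, adjusted p = 0.024. Its 4 probe sets differed: the values were -0.64, -0.40, -0.10 and 0.02 from the brightest to the dimmest, and the brighter 2 passed when tested by themselves (adjusted p = 0.0433 and 0.0496).

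The condensin ring, which compacts chromosomes, has a core of SMC2 and SMC4. SMC4 had 12.37, 12.67 and 12.42 on the SAH-BCL9B arrays and 12.99, 12.98 and 12.93 on the vehicle arrays, and SMC2 had 10.32, 10.42 and 10.41 on the SAH-BCL9B arrays and 10.83, 10.68 and 10.68 on the vehicle arrays. The differences were -0.48 ± 0.10, adjusted p = 0.0244, for SMC4 and -0.34 ± 0.08, adjusted p = 0.0457, for SMC2. The other subunits in the set, NCAPD2, NCAPG and NCAPH, belong to condensin I alone. Their differences were -0.38 ± 0.12, -0.23 ± 0.09 and -0.14 ± 0.08, and none passed (adjusted p = 0.12, 0.185 and 0.399). NCAPH had the smallest difference, with 10.00, 9.93 and 10.08 on the SAH-BCL9B arrays and 10.05, 10.19 and 10.19 on the vehicle arrays, and its groups overlapped. NCAPD2 passed in 1 alternative, the modelled variance trend (adjusted p = 0.0376, range 0.038 to 0.35).

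TOP2A, the topoisomerase that untangles sister chromatids, had 12.55, 11.18 and 12.50 on the SAH-BCL9B arrays and 13.15, 12.69 and 12.82 on the vehicle arrays. The value of SAH-BCL9B 2 stood more than 1 log2 unit below the other treated arrays, and the difference, -0.81 ± 0.34, did not pass (adjusted p = 0.218). Without that array it was -0.36 and did not pass either (adjusted p = 0.16, range 0.13 to 0.52 over the alternatives). A second TOP2A probe set of nearly the same brightness had 11.86, 12.00 and 12.07 on the SAH-BCL9B arrays and 12.50, 12.51 and 12.38 on the vehicle arrays. Its groups did not overlap, and its difference of -0.49 passed (adjusted p = 0.0327 over all probe sets). With SAH-BCL9B 2 omitted, MKI67 and SMC4 passed, and with any other array omitted 0 of these 7 genes did. The highest adjusted p was 0.11 for MKI67, 0.19 for SMC2 and 0.11 for SMC4, over these omissions.

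Other probe sets were available for 23 of the 44 genes, 58 probe sets in all. In 18 of these genes every probe set had a negative difference, and in 5 (ANLN, AURKA, KIF20B, MKI67 and TOP2A) the signs differed. Over all 79 probe sets of the 44 genes, 74 were negative and 23 passed downward, 0 upward, in limma's test over all probe sets, where 2.07% of all probe sets passed downward. The 35 probe sets that had not been chosen had a median of -0.24, 31 were negative and 7 passed. When each gene was given the mean of its probe sets, 17 of the 44 fell, as did 2.6% of all genes. CDK1, CCNB2, AURKA, MKI67 and SMC4 then missed the threshold, with differences of -0.27, -0.24, -0.19, -0.28 and -0.28 (adjusted p = 0.0637, 0.127, 0.193, 0.0612 and 0.172). CCNA2, KIF22, KIF23 and ASPM did too (adjusted p = 0.0674, 0.122, 0.182 and 0.7), KIF23 and ASPM with differences of -0.61 and -0.31. Some of the added probe sets were dim: those of CCNB2 averaged log2 6.61 and 4.91, and the dimmest of AURKA 6.07.

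**Figure D4:**
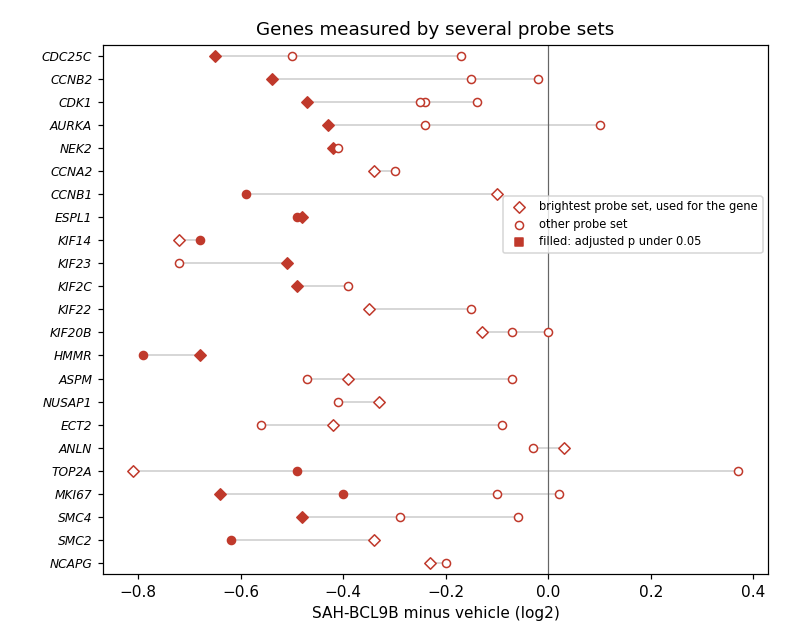
SAH-BCL9B minus vehicle difference (log2) of each probe set of the 23 genes with several probe sets; diamonds are the brightest probe set, used for the gene, circles the others, and filled symbols passed an adjusted p of 0.05 over all probe sets. For CCNB1, TOP2A, SMC2 and KIF14 a circle is filled where the diamond is not.

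Of 24 measured regulators of G2 and mitotic transcription, 4 fell and 0 rose, against 3.43% and 3.49% of all genes. The median difference was -0.14, and 19 differences were negative (44.9% over all genes). NFYB, which encodes a DNA-binding subunit of the CCAAT factor NF-Y, had 9.38, 9.52 and 9.34 with SAH-BCL9B, against 10.28, 10.28 and 10.21 with vehicle. It fell by 0.85 ± 0.08 on the log2 scale (adjusted p = 0.00222), while its partners NFYA and NFYC had differences of -0.16 and -0.17 and did not pass (adjusted p = 0.447 and 0.278). E2F8, a repressor of the E2F family, fell by 0.98 ± 0.14, E2F2, an activator of that family, by 0.69 ± 0.10, and TFDP2, an E2F partner, by 0.36 ± 0.09 (adjusted p = 0.00803, 0.00786 and 0.0463).

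MYBL2, which joins MuvB to activate mitotic genes, had 8.57, 8.77 and 8.55 with SAH-BCL9B, against 8.90, 8.93 and 8.81 with vehicle. The groups did not overlap, but the difference of -0.25 ± 0.09 did not pass (adjusted p = 0.148). LIN54, the MuvB subunit that reads the CHR element, differed by -0.11 ± 0.09, E2F4, of DREAM, by 0.11 ± 0.09 and the CDK inhibitor gene CDKN1A by -0.06 ± 0.09 (adjusted p = 0.547, 0.56 and 0.806). NFYB, E2F2 and E2F8 passed without any 1 array (highest adjusted p = 0.019, 0.04 and 0.045), and TFDP2 only without SAH-BCL9B 2 (highest 0.19).

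The medians of 4 other mitotic gene groups lay nearer to 0. A list of 18 further regulators of entry held inhibitors such as WEE1, activators such as CDC25A and CDK7, and the Greatwall and PP2A arm. Of these, 1 fell (3.43% of all genes did), BORA, which helps AURKA to activate PLK1 (-0.35 ± 0.07, adjusted p = 0.0239), and the median was -0.02. WEE1 and PKMYT1, which hold CDK1 inactive, had differences of -0.05 and -0.13 and did not pass (adjusted p = 0.843 and 0.402). Of 16 measured APC/C subunits and regulators, 0 fell and 1 rose (3.43% and 3.49% of all genes), CDC26, a subunit (0.39 ± 0.08, adjusted p = 0.0242). At an unadjusted p under 0.05, 2 of the 16 were lower, against 9.22% of all genes. The median of the 16 was -0.0001, and the activator FZR1 had 0.03 ± 0.09 (adjusted p = 0.897). All 4 genes of the chromosomal passenger complex had negative differences (median -0.21) and 0 passed limma's test, with 1 of the 4 lower at an unadjusted p under 0.05, as were 9.22% of all genes. AURKB, its kinase, had 9.35, 9.49 and 9.20 on the SAH-BCL9B arrays and 9.38, 9.69 and 9.60 on the vehicle arrays, with overlapping groups (-0.21 ± 0.11, adjusted p = 0.331). Of 12 condensin II and cohesin genes, 1 fell (3.43% of all genes did), the cohesin gene STAG2 (-0.39 ± 0.08, adjusted p = 0.0274), and the median was -0.11. BORA, CDC26 and STAG2 kept their calls with SAH-BCL9B 2 omitted and lost them with any other array omitted (highest adjusted p = 0.1, 0.11 and 0.12).

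Kinesins known mainly for transport or cilia were centred near 0. Of 26 measured, 1 fell and 1 rose, against 3.43% and 3.49% of all genes. The median difference was 0.03, against -0.41 for the 12 mitotic kinesins, and 11 differences were negative (44.9% over all genes). The 26 were dimmer than the mitotic kinesins, with a median level of log2 8.22 against 10.03. RMA understates changes of dim probe sets, and whether this moved the median was not tested. KIF21B, a kinesin of microtubule growth and transport known from neurons and immune cells, had 7.12, 7.34 and 7.0 with SAH-BCL9B, against 8.08, 8.39 and 8.11 with vehicle. It fell by 1.04 ± 0.12 on the log2 scale (adjusted p = 0.00391, at most 0.029 without any 1 array). KIF1C, a transport motor, had 9.56, 9.59 and 9.46 with SAH-BCL9B, against 9.01, 9.13 and 9.02 with vehicle. It rose by 0.49 ± 0.08 (adjusted p = 0.0124) and lost its call with vehicle 1 or SAH-BCL9B 1 omitted (highest 0.071).

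**Figure D5:**
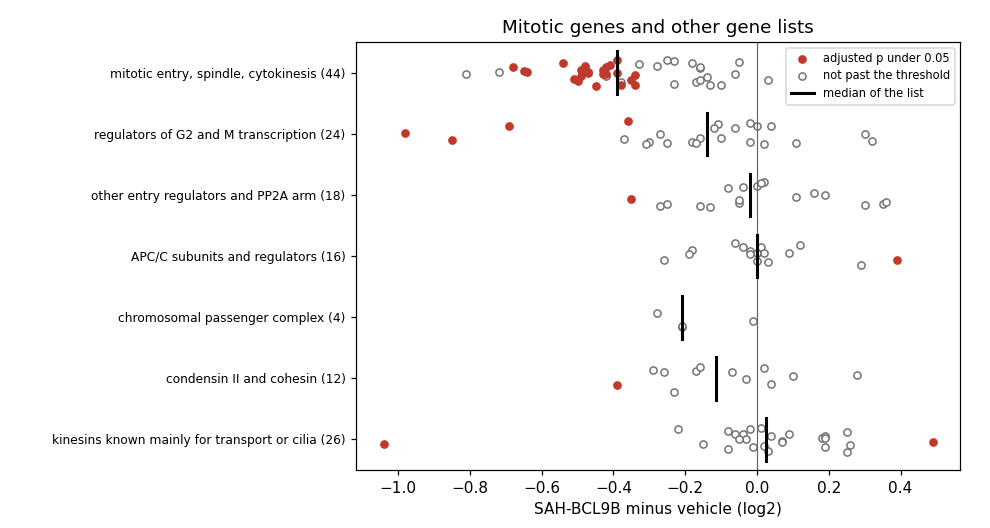
SAH-BCL9B minus vehicle difference (log2) of the 44 mitotic genes and of 6 other gene lists, 1 circle per gene with random vertical scatter; filled circles passed an adjusted p of 0.05 over all genes and black bars are medians. The median is -0.39 for the mitotic genes, 0.03 for the kinesins of transport or cilia and near 0 for APC/C genes.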

How the data were processed

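RNA of 3 SAH-BCL9B and 3 vehicle cultures of DLD1 cells was labelled with biotin as cRNA, per the labels' protocols, and hybridised to 6 Affymetrix Human Genome U133 Plus 2.0 arrays. The deposited table holds 54675 probe sets as log2 intensities, made by RMA with affy per the submitters' processing notes, which give no versions. The scale was read from the values, which run from 3.26 to 15.8. RMA sets the arrays to a common distribution, which hides a shift of most genes at once, and it understates changes of dim probe sets. No scanner signal was used, so nothing is known of signal over background, and the number of arrays limits the precision.

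Groups were taken from the array titles. Probe sets were named through GEO's platform annotation, checked by Entrez ID against RefSeq (GRCh38.p14). Of them, 41091 named 1 gene, 1801 several and 11721 none; the brightest per gene gave 19775 genes. The groups were compared by limma's lmFit and eBayes (limma 3.58.1, R 4.3.3, prior degrees of freedom 3.94) with no covariates and a threshold of 0.05 after adjustment over all genes. Tables and figures used pandas 2.3.3 and matplotlib 3.10.9 in Python 3.11.15. The fit was tested on simulated data. It found 35 of 100 genes changed by 0.5 and 84 of 100 changed by 1 on the log2 scale, with 5 false calls. Changes of 0.5 were thus often missed, and a gene that did not pass is not shown to be unchanged. The 44 genes, the lists and the alternatives were chosen with earlier results of these data known. All 44 genes were named; values on every array are printed for those that passed and for the extremes of each function, with a few more chosen after their values were seen, as were the probe sets described. Motifs were searched in RefSeq promoter windows. The replicates were separate cultures per the labels. Alternatives covered the replicate block, a filter on low values, the use of several probe sets, median centring, quantile normalization, a variance trend, array weights and arrays left out.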

Additional observations from a re-analysis of the deposited data

How the results depend on the processing

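Of all genes, 1370 passed as reported, 2271 with a filter that kept genes above log2 6.605, 2456 with a modelled variance trend, 2172 with array weights and 296 with the replicate number as a block. With 1 array left out, 316 to 1426 of all genes and 3 to 22 of the 44 mitotic genes passed, and of the 44 none was higher. With the replicate number as a block 2 of the 44 fell, CDC25C and HMMR. Deviations from the group means correlated at 0.239 over genes between the arrays numbered 1, at -0.197 between those numbered 2 and at -0.316 between those numbered 3. SAH-BCL9B 2 correlated best with vehicle 3 (0.417), so not every pair deviated together and the numbers were not taken as a pairing. In the other alternatives 16 to 30 of the 44 fell and 0 rose, and their median ran from -0.42 to -0.31. Signs turned for ANLN (-0.03 to 0.10 with 1 array left out) and TACC3 (-0.11 to 0.02). CCNA2 also missed the threshold with median centring, and DLGAP5 and SMC2 with a second quantile normalization (adjusted p = 0.0545, 0.0541 and 0.0512). With every probe set tested by itself CCNA2, KIF11, KIF18A, KIF22, DLGAP5, ASPM, PRC1 and SMC2 missed it (adjusted p = 0.0515 to 0.0796). Without vehicle 3 and SAH-BCL9B 2, CCNA2, KIF11, KIF18A and SMC2 did (0.0558 to 0.0987). The cause of these changes was not tested, beyond the loss of 1 array of 6.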

Other observations

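Single arrays carried some of the spread in these genes. SAH-BCL9B 2 lay at least 1 log2 unit below both other SAH-BCL9B arrays in 5 of the 79 probe sets of the 44 genes (6.33%), against 1.29% of all 41091 single-gene probe sets. These were 2 probe sets of ASPM and 1 each of KIF23, SMC4 and TOP2A. The dimmer ASPM probe set had 8.14, 6.13 and 8.07 on the SAH-BCL9B arrays and 8.71, 7.17 and 7.86 on the vehicle arrays, so vehicle 2 was low as well. In KIF23 the second probe set had 8.39, 6.48 and 8.17 with SAH-BCL9B, against 8.66, 8.20 and 8.33 with vehicle. Over the chosen probe sets SAH-BCL9B 2 was the highest treated array in 21 of the 44 genes and the lowest in 13, and SAH-BCL9B 1 was the lowest in 21.

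Among the 44 chosen probe sets, brightness did not order the differences. Across the 44 genes, which share the same 6 arrays, the correlation of the mean level with the difference was -0.10 (Pearson) and -0.11 (Spearman), given as a description. This does not cover the probe sets that were not chosen, each dimmer than the one chosen for its gene, whose median difference was -0.24.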
